A study of Mus musculus with 16 samples.

Results

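The genes described here are 34 genes of glycolysis and the pentose phosphate pathway in murine gingival fibroblasts (mGF), the resident connective tissue cells of the gum. The list was chosen by gene symbol and holds glucose and lactate transporters, the enzymes of both pathways with their isozymes, the enzymes that set fructose 2,6-bisphosphate, and the hypoxia genes Hif1a and Vegfa. The 34 genes are among 56941 in the count table, and 33 of them passed the filter on low counts. The cells were primary explant cultures of wild-type C57Bl6 mice aged 3 to 6 months, taken from gingiva beside the maxillary second molar and used at passages 2 to 8. Of 16 bulk RNA-seq libraries, 4 came from each condition after 24 h. The conditions were BSA (control, the carrier protein alone, replicates 1 to 4), the inflammatory cytokine IL-1β at 1 ng/mL (replicates 5 to 8), the saturated fatty acid palmitate at 200 µM bound to BSA (replicates 9 to 12), and palmitate + IL-1β (replicates 13 to 16). The comparisons asked how palmitate, IL-1β and the combination changed the transcripts through which fibroblasts take up and use glucose.

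Glycolysis splits glucose into pyruvate in the cytosol and yields ATP and NADH, and lactate dehydrogenase then turns pyruvate into lactate, which leaves the cell through monocarboxylate transporters. The pentose phosphate pathway branches off at glucose 6-phosphate. Its oxidative arm makes NADPH, the reductant for fatty acid synthesis and for glutathione, and its non-oxidative arm interconverts sugar phosphates and supplies ribose for nucleotides. Hexokinase and phosphofructokinase are the main control points, fructose 2,6-bisphosphate is the strongest activator of the latter, and the transcription factor HIF-1 is known to induce many genes of the pathway through a short DNA core.

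The hypoxia response element has the core ACGTG or GCGTG, so the stretch just upstream of the start site is shown for the genes that the results turn on, with each core or its reverse complement in capitals. Promoters of 33 of the 34 genes were matched in the RefSeq table of GRCm38.p6, and each of these was found at 1 place in GRCm39, whose coordinates are given. Slc2a3 had no entry. The 250 bases before the RefSeq start of Slc2a1, Hk2, Pfkfb3 and Pgd, which had the largest changes, and of Gapdh, the qPCR reference gene of the study, read as follows, 5′ to 3′.
Slc2a1, chr4:118965692-118965941, plus strand: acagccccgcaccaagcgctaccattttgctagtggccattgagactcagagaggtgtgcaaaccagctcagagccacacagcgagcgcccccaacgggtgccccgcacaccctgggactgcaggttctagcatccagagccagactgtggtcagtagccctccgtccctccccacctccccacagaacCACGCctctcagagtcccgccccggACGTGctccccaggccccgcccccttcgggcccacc
Hk2, chr6:82751436-82751685, minus strand: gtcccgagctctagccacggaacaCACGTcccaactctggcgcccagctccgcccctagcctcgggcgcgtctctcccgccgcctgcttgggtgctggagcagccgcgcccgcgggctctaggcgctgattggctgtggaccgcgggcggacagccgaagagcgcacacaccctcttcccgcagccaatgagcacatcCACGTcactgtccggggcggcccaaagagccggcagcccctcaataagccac
Pfkfb3, chr2:11558741-11558990, minus strand: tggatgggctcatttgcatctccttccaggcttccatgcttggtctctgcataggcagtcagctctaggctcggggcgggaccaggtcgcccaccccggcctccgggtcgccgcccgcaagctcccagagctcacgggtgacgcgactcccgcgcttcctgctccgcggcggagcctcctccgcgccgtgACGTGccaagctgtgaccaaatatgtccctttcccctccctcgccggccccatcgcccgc
Pgd, chr4:149251163-149251412, minus strand: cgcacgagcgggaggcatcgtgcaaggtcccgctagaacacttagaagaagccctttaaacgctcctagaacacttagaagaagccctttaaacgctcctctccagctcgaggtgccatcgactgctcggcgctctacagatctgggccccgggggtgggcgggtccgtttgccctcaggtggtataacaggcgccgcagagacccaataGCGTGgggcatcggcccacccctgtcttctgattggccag
Gapdh, chr6:125142737-125142986, minus strand: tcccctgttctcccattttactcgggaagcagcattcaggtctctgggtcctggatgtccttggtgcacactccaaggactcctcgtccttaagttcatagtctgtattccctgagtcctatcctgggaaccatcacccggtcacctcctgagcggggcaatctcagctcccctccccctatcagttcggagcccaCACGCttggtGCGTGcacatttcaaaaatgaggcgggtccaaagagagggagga
Slc2a1, Hk2 and Gapdh each held 2 cores in this stretch, and Pfkfb3 and Pgd each held 1. In the window from 250 bases before to 50 after the start, read on both strands, ACGTG occurred in 14 of 33 promoters (42.4%, against 20.7% of all 17492 promoters in the table). GCGTG occurred in 18 (54.5%, against 38.4%), and at least 1 of both cores in 24 (72.7%, against 49.2%). The E-box CACGTG, which contains ACGTG, occurred in 5 (15.2%, against 7.9%). The antioxidant response core TGACNNNGC occurred in 2 promoters, those of Slc16a1 and G6pdx (6.06%, against 13.2%). These matches only describe letters in a window, and Gapdh, which was not called with palmitate alone, held cores as well. Cores also occurred in Pfkm, Pfkp and Ldhb, which fell with palmitate. Hk1, Tigar, Aldoa, Tpi1 and Vegfa, which rose, held no core, and the other genes that rose each held at least 1. A relation between cores and the changes was not tested.

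Each library held between 21234789 and 92752515 counts on genes. Palmitate replicate 10 was the deepest and the next deepest library held 35329711. Levels are given as CPM, the counts scaled to a common normalised library size, where 3 counts, the floor used here, correspond to between 0.0331 and 0.146 CPM. The fibroblast label was met by its markers, whose 10 genes summed to 46375 to 57848 CPM in every library, while the defining keratinocyte genes Krt1, Krt5 and Krt14 did not exceed 5 counts in any library. Of these 10 fibroblast genes, 2 rose and 4 fell with palmitate (60% called, beside 37.3% of all genes, of which 17.5% fell). With palmitate + IL-1β, 2 of them rose and 6 fell (80% called, beside 47.3% of all genes, of which 22.5% fell). Of the 8 genes of the whole keratinocyte list, 3 passed the filter on low counts. Some markers of other cells moved with palmitate: the keratinocyte list of 8 genes summed to 4.46 to 5.27 CPM in BSA, 2.98 to 3.40 in palmitate and 2.48 to 3.13 in palmitate + IL-1β. The Schwann and melanocyte list of 6 genes summed to 19.9 to 22.7 CPM in BSA, 34.3 to 38.0 in palmitate and 35.9 to 39.3 in palmitate + IL-1β, most of it Mitf, with Sox10 and Dct at or under the floor throughout. In bulk RNA, fewer cells of a type and less RNA per cell cannot be told apart, and the part of these markers in the results was not tested. The leukocyte list summed to 2.62 to 4.41 CPM over all libraries, the endothelial list to 1.93 to 2.75 CPM and the muscle list to 38.2 to 46.6 CPM. In all 24 pairs of replicates the counts differed by more than sampling noise (chi-square per degree of freedom 2.63 to 18.5). Separate cultures or animals were not stated for the replicates, so p-values measure the spread between these libraries, which may be technical.

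With palmitate alone, 18 of the 33 tested genes rose and 3 fell (edgeR quasi-likelihood test, adjusted p under 0.05 over all genes tested). That is 63.6% of the tested genes, beside 37.3% of all 16306 genes tested, of which 19.8% rose and 17.5% fell. The median log2 fold change was 0.16 over the 33 genes and -0.003 over all genes tested. Hk2, Slc2a1, Pfkfb3 and Pgd had the largest folds, between 1.76 and 2.61, and Pfkm, Ldhb and Pfkp were the 3 that fell, by 28.7%, 21.1% and 21.0%. With upper-quartile scaling, 15 of the genes rose and 4 fell, while the share of rises among all called genes went from 53.1% to 37.1%.

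IL-1β alone moved 8 of the 33 tested genes. Hk2, Pfkfb3, Eno2, Slc16a1, Pgd, Taldo1 and Vegfa rose, by 14.1% to 34.5%, and Pfkp fell by 11.7%. These 8 genes are 24.2% of those tested, beside 15.1% of all genes (10.1% rose and 4.97% fell), and the median log2 fold change of the 33 genes was -0.01. With upper-quartile scaling 6 rose and 3 fell, and over all genes the share of rises among calls went from 67.1% to 43.5%. Tpi1 and Ldhb, not called in the main edgeR fit, were called lower with that scaling (adjusted p = 0.0235 and 0.0182) and in some other fits.

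With palmitate + IL-1β, 15 genes rose against BSA and 5 fell. They are 60.6% of those tested, beside 47.3% of all genes (24.8% rose and 22.5% fell), and the median log2 fold change was 0.09. Pfkfb2 and Gapdh fell in addition to Pfkm, Pfkp and Ldhb. Upper-quartile scaling gave 15 rises and 6 falls, and moved the share of rises among all called genes from 52.4% to 38.7%. The 3 comparisons with BSA share the same 4 control libraries and are therefore not independent of one another.

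**Figure D1:**
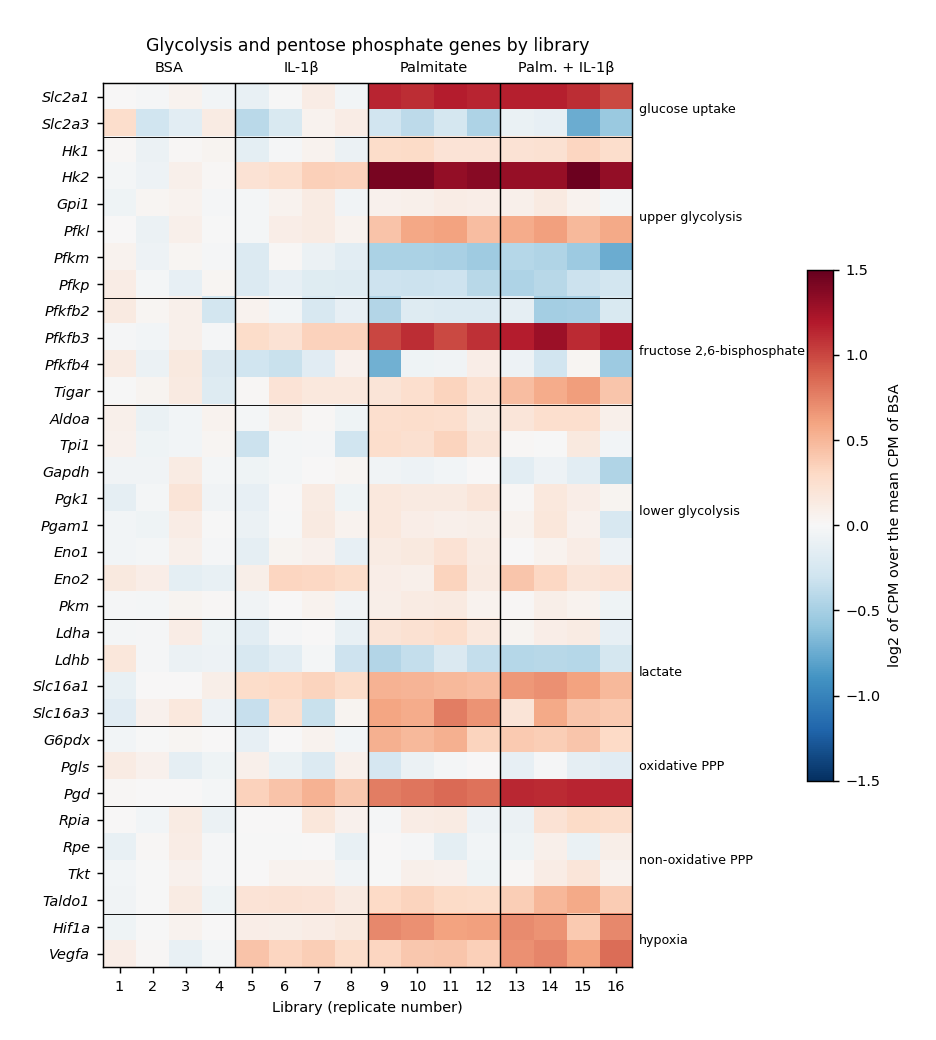
Level of each of the 33 tested genes (rows, grouped by role) in each of the 16 libraries (columns, by condition and replicate number), as the log2 of its CPM over the mean CPM of the 4 BSA libraries; red is higher and blue lower. Hk2, Slc2a1, Pfkfb3 and Pgd are deep red in all 8 libraries with palmitate, and Pfkm, Pfkp and Ldhb are blue in them.

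At glucose uptake and the first step of glycolysis, 1 transporter and both hexokinases rose with palmitate. Slc2a1 (chromosome 4, 118965908 to 118996365, plus strand) encodes GLUT1, the main basal glucose transporter of fibroblasts. Its levels were 64.3, 63.3, 66.6 and 62.3 CPM in BSA, 59.4, 63.8, 69.4 and 62.2 with IL-1β, 141, 138, 144 and 142 with palmitate, and 144, 144, 138 and 127 with palmitate + IL-1β. All 8 libraries with palmitate lay above all 8 without it, and IL-1β libraries overlapped those of BSA. The fold was 2.205 with palmitate (log2 1.14, 95% interval 1.04 to 1.24, adjusted p = 5.34e-19) and 2.16 with palmitate + IL-1β (log2 1.11, 1.01 to 1.21, adjusted p = 7.84e-19). With IL-1β alone the log2 fold change was -0.01 (-0.11 to 0.09, adjusted p = 0.94). Slc2a3, the high-affinity transporter GLUT3 best known from neurons, stayed between 0.707 and 1.42 CPM over all libraries and passed the test in no comparison.

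Hexokinase traps glucose in the cell by phosphorylation, and Hk2 (chromosome 6, 82699740 to 82751469, minus strand) is its inducible isozyme. Hk2 was at 25.3, 24.5, 27.2 and 25.97 CPM in BSA, 29.9, 30.7, 33.05 and 32.7 with IL-1β, 69.3, 69.04, 64.1 and 66.1 with palmitate, and 63.9, 63.8, 71.4 and 64.0 with palmitate + IL-1β. The BSA, IL-1β and palmitate libraries formed 3 ranges that did not overlap, and those of palmitate + IL-1β overlapped palmitate alone. Its fold against BSA was 2.61 with palmitate (log2 1.39, 1.28 to 1.49, adjusted p = 2.64e-20), 1.23 with IL-1β (log2 0.30, adjusted p = 0.00013) and 2.56 with the combination (log2 1.35, adjusted p = 3.37e-20). Hk1, the housekeeping isozyme, moved far less: 98.9 to 108 CPM in BSA, 94.7 to 109 with IL-1β, 121 to 128 with palmitate and 122.4 to 131 with the combination. That was a rise of 18.2% with palmitate (adjusted p = 5.33e-05) and 19.8% with palmitate + IL-1β (adjusted p = 1.32e-05). Gpi1, which converts glucose 6-phosphate to fructose 6-phosphate, stayed between 227 and 261 CPM in all libraries and was not called in any comparison.

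**Figure D2:**
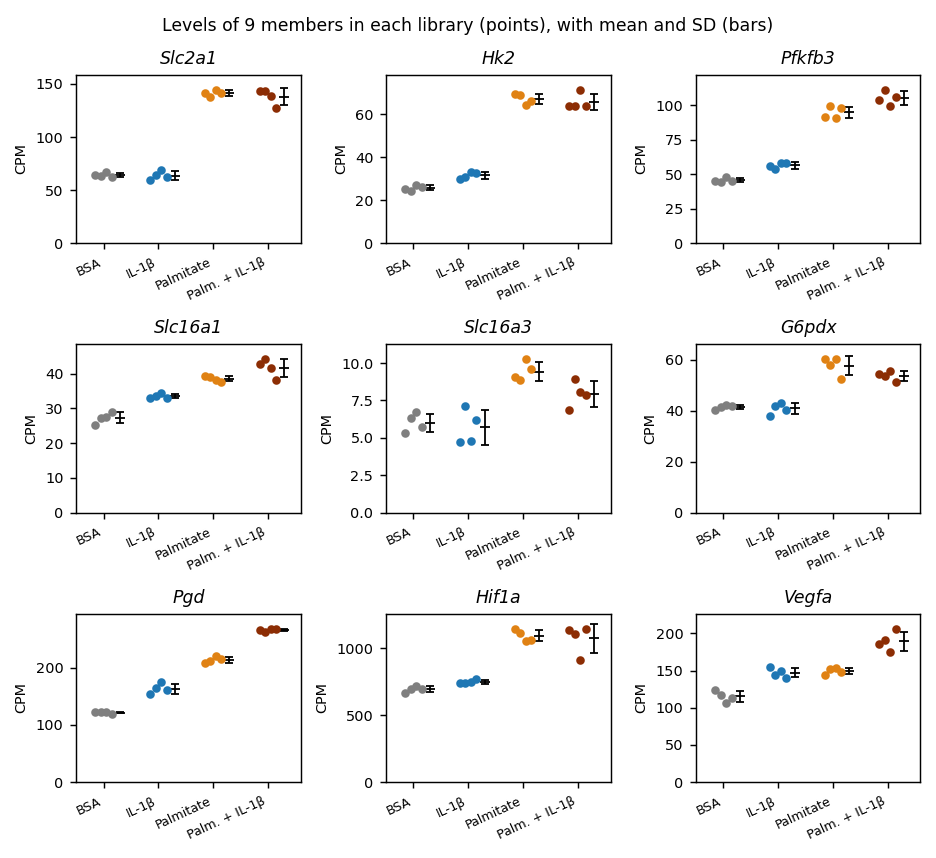
CPM of 9 genes (1 panel each, linear axis from 0) in the 4 libraries of each condition (points), with the mean and SD beside them (bars). Slc2a1, Hk2, Pfkfb3, G6pdx and Hif1a separate the palmitate conditions from the others, Pgd climbs over all 4 conditions, and Vegfa is about as high with IL-1β as with palmitate.

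Phosphofructokinase commits sugar to glycolysis, and its 3 isozyme genes did not move together. Pfkl, the liver type, rose from 61.7, 65.4, 66.0 and 68.9 CPM in BSA (in rank order) to 88.0 to 99.7 with palmitate and 91.4 to 100 with palmitate + IL-1β. Pfkm, the muscle type, was at 37.9 to 41.7 CPM in BSA, 34.7 to 40.6 with IL-1β, 27.8 to 28.9 with palmitate and 23.9 to 29.8 with the combination. Pfkp, the platelet type, went from 63.2 to 74.1 CPM in BSA to 51.4 to 55.5 with palmitate and 49.7 to 56.5 with the combination. In each case the libraries with and without palmitate did not overlap. For palmitate, the log2 fold changes were 0.52 (SE 0.048, adjusted p = 1.32e-10) for Pfkl, -0.49 (SE 0.059, adjusted p = 5.17e-08) for Pfkm and -0.34 (SE 0.050, adjusted p = 1.49e-06) for Pfkp, and those of the combination were 0.56, -0.53 and -0.37. Pfkp was also lower with IL-1β alone (59.4 to 62.9 CPM, log2 -0.18, adjusted p = 0.0126), a call that was lost without BSA replicate 1 (adjusted p = 0.071).

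Per base of the canonical transcript, where levels of different genes can be compared, Pfkl and Pfkp held nearly the same share in BSA and Pfkl led with palmitate. Pfkl made up 38.1 ± 1.499% of the summed phosphofructokinase level in BSA (SD, n = 4), 41.6 ± 0.772% with IL-1β, 53.7 ± 1.37% with palmitate and 54.9 ± 1.19% with the combination. The share of Pfkm was 23.9 ± 0.451%, 23.2 ± 0.698%, 16.8 ± 0.537% and 16.2 ± 1.54% in the same order, and that of Pfkp 38.0 ± 1.89%, 35.1 ± 0.747%, 29.5 ± 0.889% and 28.9 ± 1.91%. The ratio of Hk2 to Hk1 per length was 0.130 to 0.140 over the BSA libraries, 0.162 to 0.182 with IL-1β, 0.292 to 0.3003 with palmitate and 0.279 to 0.299 with the combination, so that Hk1 remained the more abundant isozyme throughout. These values depend on the length used. Per length of all exons, a choice made after seeing the data, the Hk2 to Hk1 ratio was 0.252 to 0.271 in BSA and 0.563 to 0.5803 with palmitate. On that scale Pfkl held 37.1%, Pfkm 32.6% and Pfkp 30.4% of the phosphofructokinase level in BSA, where Pfkl was already ahead of Pfkp, and 52.9%, 23.1% and 23.9% with palmitate.

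**Figure D3:**
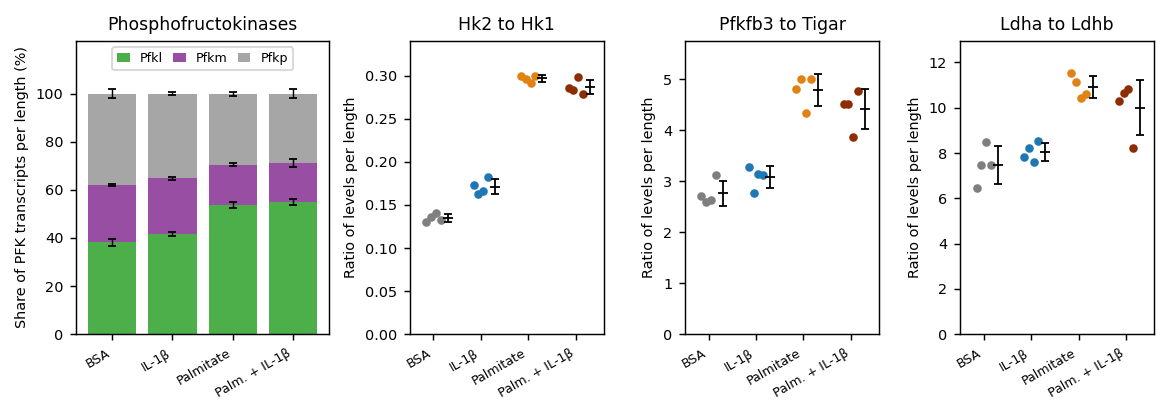
Left, share of the summed level per length of Pfkl, Pfkm and Pfkp in each condition (stacked bars, mean with SD of 4 libraries); right, ratios of levels per length of Hk2 to Hk1, Pfkfb3 to Tigar and Ldha to Ldhb in each library (points, with mean and SD). The Pfkl share grows from 38.1% in BSA to 53.7% with palmitate, and the Hk2 to Hk1 ratio from 0.135 to 0.297.

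Among the enzymes that set fructose 2,6-bisphosphate, Pfkfb3 stood out. Pfkfb3 (chromosome 2, 11476244 to 11558888, minus strand) is the bifunctional enzyme with the strongest kinase activity, which makes the activator. It was at 45.0, 44.5, 48.2 and 45.3 CPM in BSA, 55.6, 53.4, 58.3 and 58.0 with IL-1β, 91.5, 99.0, 90.7 and 97.7 with palmitate, and 104, 111, 99.4 and 106 with palmitate + IL-1β. Each condition lay above the one before it with no overlap between libraries. The folds against BSA were 2.07 with palmitate (log2 1.05, 0.96 to 1.15, adjusted p = 2.68e-18), 1.23 with IL-1β (log2 0.30, adjusted p = 2.16e-05) and 2.30 with the combination (log2 1.20, adjusted p = 6.51e-20). Tigar, a p53 target that degrades the same activator, was at 9.47 to 12.0 CPM in BSA, 11.0 to 12.6 with IL-1β, 12.4 to 13.7 with palmitate and 14.5 to 16.8 with the combination. It rose by 19.2% with palmitate (adjusted p = 0.0075, and 0.0505 with upper-quartile scaling) and by 43.3% with palmitate + IL-1β (adjusted p = 6.11e-07). The ratio of Pfkfb3 to Tigar per length was 2.60 to 3.12 in BSA, 4.33 to 5.00 with palmitate and 3.86 to 4.77 with the combination.

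The other kinases of this step were scarce. Pfkfb2, the heart type, lay between 3.31 and 5.15 CPM, and Pfkfb4, the testis type, between 1.80 and 3.28 CPM. In the main fit, Pfkfb2 passed the test only for palmitate + IL-1β against BSA, where it was 20.5% lower with overlapping libraries (adjusted p = 0.0226). That call was lost in the fits without BSA replicate 1, BSA replicate 3, or replicate 14 or 15 of the combination. For palmitate alone, Pfkfb2 was called lower with upper-quartile scaling (adjusted p = 0.0337) and without BSA replicate 4 (0.0347). Pfkfb4 was called in no comparison.

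In the lower part of glycolysis, from aldolase to pyruvate kinase, changes were small. With palmitate, 4 of 8 tested genes rose and none of them fell (beside 19.8% and 17.5% of all genes), with log2 fold changes between -0.04 and 0.26. Tpi1, which interconverts the triose phosphates, rose by 19.6% (79.8 to 87.3 CPM in BSA, 95.1 to 105 with palmitate, adjusted p = 0.00105). Aldoa, the main aldolase, rose by 17.3% (451 to 507 CPM in BSA, 534 to 576 with palmitate, adjusted p = 0.000198), and Eno1, the ubiquitous enolase, by 11.2% (578 to 629 CPM, then 647 to 694, adjusted p = 0.013). Pgk1, which makes the first ATP of the payoff phase, was 11.3% higher with overlapping libraries (adjusted p = 0.0339). The calls of Eno1 and Pgk1 depended on single libraries and on the processing. With upper-quartile scaling neither was called (adjusted p = 0.167 for Eno1 and 0.221 for Pgk1), and Pgk1 was also not called with DESeq2 (adjusted p = 0.0596), with a stricter count filter (0.061) or with mitochondrially encoded genes left out (0.0592). Eno1 was lost without BSA replicate 1 or 2 or palmitate replicate 11, and Pgk1 without BSA replicate 1, 2 or 4, any 1 of the 4 palmitate replicates, or replicate 13 of the combination. Pkm, pyruvate kinase, was 7.24% higher with palmitate (adjusted p = 0.0513) and Pgam1, the mutase, 7.52% (adjusted p = 0.234). Pkm was called with DESeq2 (adjusted p = 0.0419) and in some fits that left out a library. Aldoc, the brain aldolase, had 1 to 22 counts in each library and was not tested.

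With palmitate + IL-1β, 2 of these 8 genes rose and 1 fell against BSA, a smaller share than the 47.3% called over all genes. Aldoa rose by 14.2% (adjusted p = 0.00115) and Eno2, the neuronal enolase, by 21.4% (13.7 to 16.8 CPM, then 17.3 to 20.3, adjusted p = 0.00298). Eno2 was also 18.9% higher with IL-1β alone, with overlapping libraries (adjusted p = 0.0257), a call lost with upper-quartile scaling (adjusted p = 0.0795) and without any 1 of BSA replicates 3 and 4 and IL-1β replicates 6, 7 and 8. Gapdh, the dehydrogenase that makes NADH and the reference gene of the study's qPCR, was at 504, 504, 568 and 509 CPM in BSA, 497, 509, 523 and 530 with IL-1β, 502, 495, 505 and 523 with palmitate, and 467, 493, 467 and 380 with palmitate + IL-1β. The 4 libraries of the combination were the lowest of all 16, and replicate 16 was the lowest of these. Gapdh fell by 13.3% against BSA (log2 -0.21, -0.32 to -0.09, adjusted p = 0.00379), and over all 24 fits this log2 fold change ranged from -0.28 to -0.13. With palmitate alone it was -0.04 (adjusted p = 0.617), and its range of -0.11 to 0.003 crossed 0. Per its figure legends, the study ran its qPCR on cells treated for a shorter time than the 24 h of these libraries. Gapdh in those qPCR samples was not measured here.

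Several of these abundant enzymes share sequence with pseudogenes or other genes, and reads from the shared stretches cannot be assigned with certainty. At 95% identity over at least 100 bases, 88.0% of the Gapdh transcript was shared with other genes of the annotation, 86.2% of Aldoa, 75.7% of Eno1, 68.8% of Pgk1, 65.5% of Ldhb, 65.1% of Pkm and 62.9% of Ldha. For Aldoa the shared stretch lay in 1 other gene that is not annotated as a pseudogene. Gpi1 shared 53.6%, Pgam1 42.55%, Tpi1 19.3% and the scarce Pfkfb2 39.1%. Slc2a1, Hk2, Pfkfb3, Hif1a and Vegfa shared none of their transcript, and Pgd shared 4.86%.

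**Figure D4:**
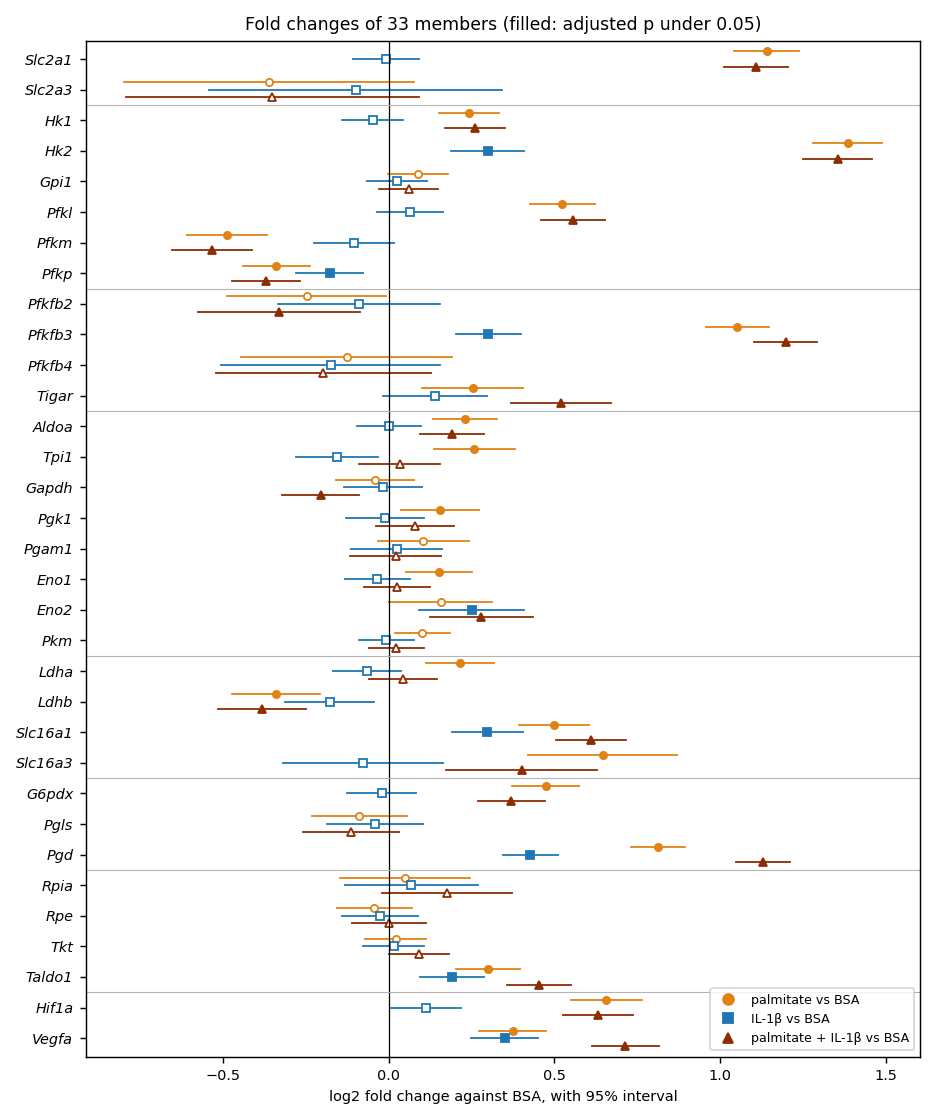
Log2 fold change against BSA of the 33 tested genes (rows, grouped by role) with 95% intervals, for palmitate (circles), IL-1β (squares) and palmitate + IL-1β (triangles); filled symbols passed the test at an adjusted p under 0.05. Slc2a1, Hk2, Pfkfb3 and Pgd reach or approach 1 with palmitate, while the enzymes from Aldoa to Pkm stay between -0.21 and 0.28.

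At the exit of the pathway, the lactate genes changed in both directions. Ldha encodes the subunit of lactate dehydrogenase that favours lactate formation, and Ldhb the one typical of oxidative tissues. Ldha was at 223 to 251 CPM in BSA, 209 to 234 with IL-1β, 261 to 281 with palmitate and 214 to 254 with the combination, a rise of 16.0% with palmitate (adjusted p = 0.000946) and of 2.97% with palmitate + IL-1β, which was not called (adjusted p = 0.522). Ldhb fell by 21.1% with palmitate (28.5 to 33.9 CPM, then 22.3 to 25.9, adjusted p = 8.38e-05) and by 23.3% with the combination (adjusted p = 1.21e-05). The ratio of Ldha to Ldhb per length was accordingly 6.45 to 8.48 in BSA and 10.4 to 11.53 with palmitate, while in the combination replicate 16 (8.20) fell within the BSA range and the others were at 10.3 to 10.9.

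Both lactate transporters rose with palmitate. Slc16a1 (MCT1), which carries lactate both ways, was at 25.3, 27.4, 27.5 and 29.0 CPM in BSA, 33.1, 33.5, 34.3 and 33.1 with IL-1β, 39.3, 39.0, 38.2 and 37.6 with palmitate, and 42.7, 44.1, 41.5 and 38.3 with palmitate + IL-1β. The 3 treated conditions all lay above BSA, by 41.2% with palmitate (adjusted p = 2.15e-09), 22.9% with IL-1β (adjusted p = 0.000108) and 52.7% with the combination (adjusted p = 1.51e-11). Slc16a3 (MCT4), the exporter of highly glycolytic cells, was at 5.33 to 6.71 CPM in BSA, 4.75 to 7.11 with IL-1β, 8.84 to 10.2 with palmitate and 6.86 to 8.93 with the combination. It rose 1.57-fold with palmitate (log2 0.65, 0.42 to 0.87, adjusted p = 1.66e-05) and 1.32-fold with the combination (adjusted p = 0.00374), and was 5.23% lower with IL-1β alone, which was not called (adjusted p = 0.731). Per length, the ratio of Slc16a3 to Slc16a1 ranged from 0.136 to 0.263 over the 16 libraries, and per length of all exons from 0.0651 to 0.125.

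The oxidative arm of the pentose phosphate pathway rose at both of its dehydrogenases. Pgd (chromosome 4, 149233246 to 149251228, minus strand) encodes 6-phosphogluconate dehydrogenase, the step of this arm that yields ribulose 5-phosphate and NADPH. Its levels were 122.4, 121.7, 121.8 and 119.3 CPM in BSA, 154, 164, 174 and 160.3 with IL-1β, 207, 212, 219 and 214 with palmitate, and 265, 263, 267 and 267 with palmitate + IL-1β. The 4 conditions formed 4 separate ranges. Pgd was 1.34-fold higher with IL-1β (log2 0.43, 0.34 to 0.51, adjusted p = 1.76e-09), 1.76-fold with palmitate (log2 0.81, 0.73 to 0.89, adjusted p = 4.79e-17) and 2.19-fold with the combination (log2 1.13, 1.05 to 1.21, adjusted p = 7.95e-21). G6pdx (chromosome X, 73449857 to 73472819, minus strand), glucose 6-phosphate dehydrogenase, which gates the pathway, was at 40.4 to 42.4 CPM in BSA, 38.1 to 43.2 with IL-1β, 52.5 to 60.2 with palmitate and 51.1 to 55.4 with the combination. It rose by 38.9% with palmitate (adjusted p = 2.39e-09) and by 29.2% with palmitate + IL-1β (adjusted p = 2.14e-07), and with IL-1β alone its log2 fold change was -0.02 (adjusted p = 0.837). Pgls, the lactonase between them, lay between 18.5 and 24.03 CPM in all libraries and was called in no comparison of the main fit. With upper-quartile scaling it was called lower with palmitate + IL-1β against BSA (adjusted p = 0.0267).

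In the non-oxidative arm, 1 of 4 genes moved with each treatment. Of all genes, 37.3% were called with palmitate, 15.1% with IL-1β and 47.3% with the combination. Taldo1, transaldolase, was at 142 to 162 CPM in BSA, 163 to 172 with IL-1β, 181 to 187 with palmitate and 192 to 221 with palmitate + IL-1β, with no overlap between neighbouring conditions. It rose by 14.1% with IL-1β (adjusted p = 0.00469), 23.1% with palmitate (adjusted p = 4.45e-06) and 37.0% with the combination (adjusted p = 1.32e-09). Tkt, transketolase, its partner in the carbon shuffling, stayed between 97.04 and 115 CPM (log2 fold change with palmitate 0.02, -0.07 to 0.11). Rpia, the ribose 5-phosphate isomerase, and Rpe, the epimerase, were not called in any comparison of the main fit either. With the combination against BSA, Rpia was called higher without replicate 13 of the combination (adjusted p = 0.0364). In the same comparison Tkt was called higher without BSA replicate 3 (adjusted p = 0.0467). Summed over the 7 enzymes of the pentose phosphate pathway, the share of all gene counts was 0.0491 ± 0.00160% in BSA, 0.0540 ± 0.00198% with IL-1β, 0.0609 ± 0.00183% with palmitate and 0.0685 ± 0.00143% with the combination (SD, n = 4 each). The share of the 15 enzymes from hexokinase to pyruvate kinase was 0.343 ± 0.00770%, 0.331 ± 0.0174%, 0.359 ± 0.0103% and 0.340 ± 0.0180% in the same order, and the libraries of palmitate (0.352 to 0.374%) overlapped those of BSA (0.337 to 0.354%).

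Both hypoxia genes rose with palmitate, and Vegfa also with IL-1β. Hif1a, the oxygen-regulated subunit of HIF-1, was at 664, 692, 719 and 696 CPM in BSA, 743, 737, 746 and 769 with IL-1β, 1142, 1113, 1056 and 1061 with palmitate, and 1132, 1108, 910.5 and 1144 with palmitate + IL-1β. All libraries with palmitate lay above those without, and replicate 15 stood below the other 3 of the combination. The fold was 1.58 with palmitate (log2 0.66, 0.55 to 0.76, adjusted p = 7.5e-12) and 1.55 with the combination (log2 0.63, adjusted p = 1.3e-11), while with IL-1β alone it was 8.07% higher, which was not called (adjusted p = 0.159). HIF-1α protein, which is controlled mainly by degradation, was not measured here. Vegfa, the angiogenic growth factor and a classical HIF-1 target, was at 124, 117, 107 and 113 CPM in BSA, 155, 145, 149 and 140.1 with IL-1β, 144, 152, 153 and 148 with palmitate, and 185, 191, 175 and 206 with the combination. It rose 1.27-fold with IL-1β (adjusted p = 3.41e-06), 1.296-fold with palmitate (adjusted p = 2.23e-07) and 1.64-fold with both (adjusted p = 1.21e-13). IL-1β and palmitate libraries overlapped for Vegfa, and their difference was 0.02 on the log2 scale (-0.08 to 0.12, adjusted p = 0.767).

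Adding IL-1β to palmitate moved 7 of the 33 genes, 5 up and 2 down. That is 21.2% of the tested genes, beside 9.81% of all genes (5.71% rose and 4.10% fell). Vegfa rose by 26.6% (adjusted p = 7.65e-06), Pgd by 24.5% (adjusted p = 7.88e-07), Tigar by 20.2% (adjusted p = 0.0145), Taldo1 by 11.3% (adjusted p = 0.0309) and Pfkfb3 by 10.7% (adjusted p = 0.0329). Tpi1 fell by 14.5% (adjusted p = 0.0139) and Ldha by 11.3% (adjusted p = 0.0244). The count depended on single libraries. It was 3 without palmitate replicate 11 and 4 without replicate 16 of the combination, and only the calls of Vegfa and Pgd stood in all 16 fits that left out a library. Slc2a1, Hk2 and Hif1a were not called between the palmitate conditions, with log2 differences of -0.03 (-0.13 to 0.06), -0.03 (-0.13 to 0.07) and -0.03 (-0.13 to 0.08).

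With palmitate added to IL-1β, 15 genes rose and 4 fell. These are 57.6% of the tested genes, beside 35.0% of all genes (18.9% rose and 16.1% fell), and with upper-quartile scaling 45.5% of the called genes overall were rises. Slc2a1 was 2.17-fold, Hk2 2.08-fold and Pfkfb3 1.86-fold higher than with IL-1β alone. Set directly against each other, palmitate was higher than IL-1β for 16 genes and lower for 2, which were Pfkm and Pfkp. The call of Pfkp was lost without IL-1β replicate 6 (adjusted p = 0.0526) or palmitate replicate 12 (0.0595), that of Pgk1 without IL-1β replicate 5 or 8 or palmitate replicate 9 or 12, and that of Pkm in 14 of the other fits, while Ldhb was called lower in 7 of them. The genes called between palmitate and IL-1β make up 54.5% of the tested genes, beside 31.6% of all genes (16.5% higher and 15.2% lower). Pgd was 1.31-fold, Slc16a1 1.149-fold and Tpi1 1.33-fold higher with palmitate than with IL-1β.

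Whether the effects of palmitate and IL-1β added up on the log2 scale was tested as an interaction. Hk2 was the single gene of the 33 that passed (3.03%, beside 1.99% of all genes). Its interaction was -0.33 (SE 0.072, -0.48 to -0.18, adjusted p = 0.00659), since IL-1β raised Hk2 by 23.0% without palmitate and changed it by -2.12% with palmitate. The call held in all 23 fits run for it. For Pgd the interaction was -0.11 (adjusted p = 0.52), for Vegfa -0.01 (adjusted p = 0.985) and for Pfkfb3 -0.15 (adjusted p = 0.367), so no departure from additivity was detected for them at this replication.

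In BSA, per kilobase of canonical transcript, Gapdh (367 CPM per kb), Pkm (324 CPM per kb), Aldoa (318 CPM per kb) and Eno1 (259.6 CPM per kb) were the most abundant transcripts of the list, followed by Ldha (147 CPM per kb), Taldo1 (118 CPM per kb) and Hif1a (101 CPM per kb). The libraries of Pkm and Aldoa overlapped, as did those of Pgk1, Gpi1 and Pgam1 at 80.7 to 88.8 CPM per kb. The 4 genes with the largest changes were of middle or low rank: Pgd 35.3, Slc2a1 14.4, Pfkfb3 8.11 and Hk2 3.30 CPM per kb. With the length of all exons of a gene in place of the canonical transcript, a choice made after seeing the data, Aldoa, Hif1a and Gapdh led, and Pkm went from rank 2 to rank 7.

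Other genes of both pathways moved in either direction. Of 27 tested genes of a list of 35 other glycolysis and pentose phosphate genes, 6 rose and 11 fell with palmitate (beside 19.8% and 17.5% of all genes, the rises being near that share), with a median log2 fold change of -0.10. Slc2a6, a lysosomal hexose transporter, was at 7.07, 6.98, 8.05 and 7.06 CPM in BSA, 15.4, 16.4, 18.5 and 18.4 with IL-1β, 27.8, 24.1, 24.8 and 25.1 with palmitate, and 24.3, 27.5, 29.5 and 28.2 with the combination. It rose 3.48-fold with palmitate (adjusted p = 1.01e-18) and 2.36-fold with IL-1β (adjusted p = 2.13e-13). Bpgm, which diverts bisphosphoglycerate from the main path, was at 50.9 to 55.0 CPM in BSA and fell to 29.6 to 32.5 CPM with palmitate (adjusted p = 3.42e-13). H6pd, the dehydrogenase of the endoplasmic reticulum that feeds its own pentose phosphate arm, rose by 25.2% (adjusted p = 4.26e-07) and Pgm1, phosphoglucomutase, by 26.5% (adjusted p = 7.61e-07).

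Many HIF targets outside glycolysis were higher with palmitate. Of 11 tested regulators of the HIF pathway, 4 rose with palmitate and none of them fell, which is 36.4% called and close to the 37.3% of all genes. Egln3, a HIF prolyl hydroxylase that is itself induced by HIF, was at 5.87 to 6.85 CPM in BSA, 7.21 to 10.6 with IL-1β, 19.6 to 22.7 with palmitate and 17.5 to 20.03 with the combination, a fold of 3.40 with palmitate (adjusted p = 2.93e-17). Epas1, which encodes HIF-2α, rose 2.13-fold (adjusted p = 6.28e-09), Egln1 1.28-fold (adjusted p = 3.11e-07) and Eloc, a subunit of the VHL ligase, 1.14-fold (adjusted p = 0.00149). Of 21 HIF targets outside glycolysis, 16 rose and 1 fell (beside 19.8% and 17.5% of all genes), with a median log2 fold change of 0.42. They included Hmox1, heme oxygenase, Ero1a, an oxidase of the endoplasmic reticulum, and Kdm3a, a histone demethylase, which rose 1.85-fold, 1.53-fold and 1.45-fold (adjusted p = 2.49e-16, 5.77e-12 and 3.99e-12). Hmox1 also rose 2.10-fold with IL-1β (adjusted p = 1.29e-17), and the antioxidant regulator Nfe2l2 is known to drive it as well. Nos2, inducible nitric oxide synthase, had 4, 7, 0 and 0 counts in BSA and 29.97 to 38.3 CPM with palmitate. With IL-1β alone, 6 of the 21 genes rose and none fell (28.6% called, beside 15.1% of all genes, of which 10.1% rose and 4.97% fell). Nos2 had the largest log2 fold change of the list in that comparison too, so its rise was not particular to palmitate. The size of its changes depends on the prior count, since BSA was near the floor. Which regulator raised Nos2 or the other genes of this list was not tested.

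Among 11 tested transcriptional regulators of glucose use, 6 rose and 3 fell with palmitate (81.8% called, beside 37.3% of all genes), and with IL-1β 5 rose and none fell (45.5%, beside 15.1%). Nfe2l2 (NRF2) is known to induce genes of the pentose phosphate pathway. It was at 114 to 133 CPM in BSA, 167 to 204 with IL-1β, 271 to 309 with palmitate and 325 to 378 with the combination, with no overlap between conditions. Its folds were 1.47 with IL-1β (adjusted p = 1.47e-07), 2.31 with palmitate (adjusted p = 6.72e-15) and 2.73 with both (adjusted p = 1.04e-16). In the main fit, Pgd and Taldo1 rose with every treatment, and G6pdx only where palmitate was present. Pgls, Rpia, Rpe and Tkt were not called. A relation of Nfe2l2 to these genes was not tested. Trp53, whose product induces Tigar, rose 1.59-fold with palmitate (adjusted p = 3.39e-14). The glucose-responsive arrestins went opposite ways: Arrdc4 rose 1.74-fold (adjusted p = 5.75e-12) and Txnip, an inhibitor of glucose uptake, fell by 28.1% (adjusted p = 1.24e-08).

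**Figure D5:**
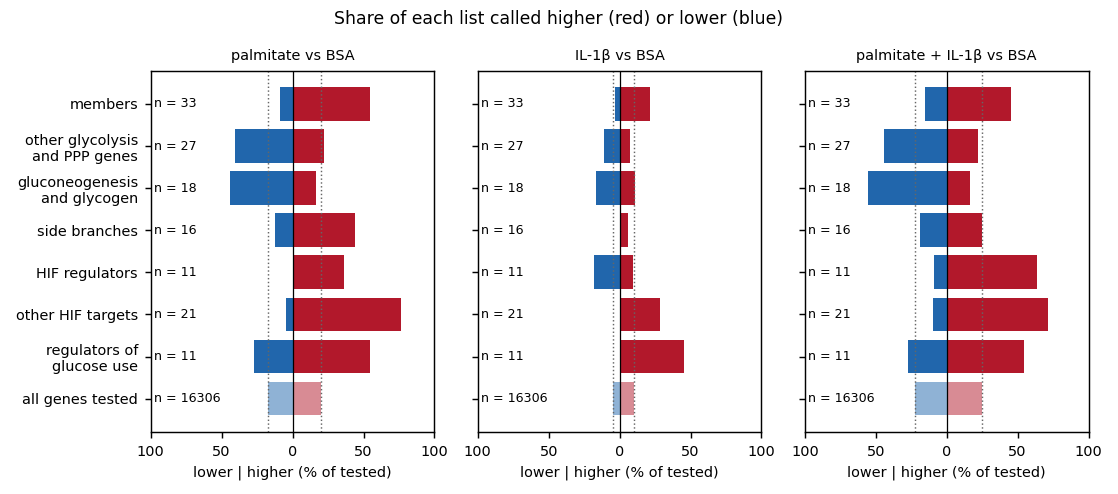
Share of the tested genes of each list that were called higher (red, to the right) or lower (blue, to the left) against BSA, for palmitate, IL-1β and palmitate + IL-1β, with the number tested; the paler bars and dotted lines give the share over all 16306 genes tested. With palmitate, 16 of 21 HIF targets outside glycolysis are red, while 11 of 27 other glycolysis and pentose phosphate genes are blue.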

How the data were processed

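Bulk RNA of mGF was sequenced in 16 libraries. Per the labels and the methods of the study, the authors removed adapters (Trimmomatic), mapped the reads to GRCm39 (STAR, GENCODE vM33) and counted them per gene by strand (HTSeq). The deposited values were raw counts, not normalised. A stranded kit for total RNA is given in the labels but an oligo(dT) protocol in the methods, so which RNA was captured is uncertain. Summary rows that name no gene held 18.3 to 21.4% of counts and were left out. Mitochondrially encoded genes took 10.7 to 14.0% of gene counts.

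Counts were fitted in R 4.3.3 with edgeR 4.0.16 (TMM, filterByExpr, robust quasi-likelihood, 1 fit of 16 libraries, 12 residual degrees of freedom), with Benjamini-Hochberg adjustment over all 16306 genes tested and calls at 0.05. The common biological coefficient of variation was 6.08%. The pipeline was tested on simulated data. Alternatives were DESeq2 1.42.0, other scalings and filters, and each library left out. Levels per length used the Ensembl canonical transcript (GENCODE vM39, which held 56323 of the 56941 genes). A second row with the symbol Aldoa, with 3 to 26 counts a library, was not used. Promoters came from RefSeq (GRCm38.p6).

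The genes and lists were chosen with earlier results of these data known. All 34 genes are accounted for, with values by library for those called most often or changed most, and at most 4 called genes per main comparison were named from each other list, by smallest adjusted p. Intervals and floors cover counting error or the spread between libraries only.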

Additional observations from a re-analysis of the deposited data

Results flagged for a closer look

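Single libraries stood apart from the other 3 of their condition in 16 of 228 groups examined, 10 of them in the 132 groups of the listed genes, where chance gives about 1 in 20. Among the listed genes, Hk1 was low in BSA replicate 2 (98.9 CPM), Gapdh was high in BSA replicate 3 (568 CPM), and Rpe and Taldo1 were low in IL-1β replicate 8 (33.5 and 163 CPM). In palmitate, Pfkp and Aldoa were low in replicate 12 (51.4 and 534 CPM) and Pfkfb2 in replicate 9 (3.45 CPM). In palmitate + IL-1β, replicate 15 was high for Hk2 (71.4 CPM) and low for Hif1a (910.5 CPM), and replicate 16 was high for Ldhb (25.2 CPM).

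Among the other genes, Slc2a6 and Epas1 were high in BSA replicate 3 (8.05 and 3.28 CPM), Akr1b3 was high in palmitate replicate 9 (50.8 CPM) and Kdm3a low in palmitate replicate 12 (89.4 CPM). Gys1 and Egln3 were low in replicate 16 of palmitate + IL-1β (59.7 and 17.5 CPM).

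The effect of IL-1β differed with and without palmitate, by the interaction in the edgeR fit, for 6 genes over the lists examined. Over all 16306 genes tested, 324 passed (1.99%), and 298 of these were negative, the sign that the 6 genes also had. The interaction was -0.33 for Hk2 (adjusted p = 0.00659), -1.13 for Slc2a6 (adjusted p = 3.62e-09), -0.68 for Egln3 (adjusted p = 0.000568), -3.45 for Nos2 (adjusted p = 2.1e-06), -0.32 for Nfe2l2 (adjusted p = 0.0475) and -0.26 for Trp53 (adjusted p = 0.0143). Nos2 was near the floor in BSA, so its value depends on the prior count. The call of Nfe2l2 was lost in 14 of the fits run, and that of Trp53 with upper-quartile scaling (adjusted p = 0.0573).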

How the results depend on the processing

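No call of the 33 tested genes changed direction in any alternative. The count of called genes for palmitate + IL-1β against palmitate ranged from 3 to 8 when 1 library was left out, with 3 without palmitate replicate 11 and 4 without palmitate + IL-1β replicate 16, and the cause was not tested. The counts of the other comparisons ranged from 19 to 22 (palmitate against BSA), 7 to 9 (IL-1β against BSA), 19 to 21 (palmitate + IL-1β against BSA), 18 to 19 (palmitate + IL-1β against IL-1β), 16 to 19 (palmitate against IL-1β) and 1 to 1 (interaction). Without the deepest library, palmitate replicate 10, 20 genes were called for palmitate against BSA. Upper-quartile scaling moved the split of calls over all genes from 3228 higher and 2855 lower to 2402 and 4064 for palmitate, from 1654 and 810 to 1192 and 1551 for IL-1β, and from 4041 and 3664 to 3115 and 4938 for the combination. No paired analysis was possible because the replicate numbers run from 1 to 16 and no number is shared between conditions. Low levels limit Slc2a3, Pfkfb2, Pfkfb4 and Aldoc.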

Other observations

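Genes that lead away from glycolysis moved in both directions with palmitate. Of 18 tested genes of gluconeogenesis and glycogen, 3 rose and 8 fell (beside 19.8% and 17.5% of all genes), with a median log2 fold change of -0.14. The 3 that rose were Pcx, pyruvate carboxylase (1.95-fold, adjusted p = 5.59e-15 in the edgeR fit), Gbe1, the glycogen branching enzyme (1.44-fold, adjusted p = 2.75e-09), and Gys1, glycogen synthase (1.27-fold, adjusted p = 3.69e-07). Pygb, a glycogen phosphorylase, fell by 22.8% (adjusted p = 1.97e-08). Pcx was at 17.3 to 19.8 CPM in BSA, 24.2 to 27.7 with IL-1β, 34.3 to 38.6 with palmitate and 41.8 to 46.6 with palmitate + IL-1β, with no overlap.

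Of 16 tested genes of side branches, 7 rose and 2 fell (beside 19.8% and 17.5% of all genes). Gfpt2, which opens the hexosamine pathway, rose 1.73-fold (adjusted p = 1.91e-10), and Gnpnat1 of the same pathway 1.27-fold (adjusted p = 6.86e-06). The polyol pathway split: Akr1b3, aldose reductase, rose 1.35-fold (adjusted p = 9.81e-08), and Sord, sorbitol dehydrogenase, fell by 47.0% (35.1 to 40.8 CPM in BSA, 18.8 to 20.4 with palmitate, adjusted p = 3.53e-15).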
